A study of Mus musculus with 2 samples.

Results

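The genes described are 32 components of the basement membrane, of 27998 genes in the count matrices, taken by symbol: the 6 collagen IV chains, 10 laminin chains, both nidogens, 4 proteoglycans or proteoglycan-type collagens, the anchoring collagen Col7a1, 2 receptors, 4 accessory proteins and 3 genes of the SPARC family. All 32 were found in both libraries. Each level is given in CPM: the unique molecular identifiers (UMIs) of a gene in a group of summed cells, divided by all UMIs of that group and multiplied by 1000000.

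A basement membrane is a thin sheet of matrix that lies under epithelia and endothelia and around pericytes, smooth muscle, fat and nerve. Laminins, which are trimers of an alpha, a beta and a gamma chain, polymerise at the cell surface and bind integrins and dystroglycan. Collagen IV forms a second, covalently linked network, and nidogens and perlecan join both. In the pancreas such sheets surround acini, ducts, islets and capillaries, and quiescent stellate cells lie close to them.

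The study used 2 droplet libraries of mouse pancreatic cells, 1 per condition, sequenced with 10x Genomics 3′ chemistry. Both came from Rosa26-mTmG mice with Fabp4-Cre, in which cells that have expressed Cre from the Fabp4 promoter, and their progeny, switch to a membrane GFP. The normal library holds GFP-positive cells from healthy pancreas of mice aged 6 to 9 weeks, digested with Pronase and Collagenase P. The tumour library holds cells positive for both GFP and PDPN from orthotopic FC1245 pancreatic tumours, implanted at 8 weeks and taken 21 days later, digested with Collagenase IV and Dispase and then trypsin. Condition, age, digestion and the PDPN gate therefore cannot be told apart, and the number of mice per library is not given in the sources used here. With 1 library per group there is no replicate and no test: all intervals are exact 95% intervals that cover counting error only.

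After filtering, 4520 normal and 2520 tumour cells remained, with median depths of 7066 and 10131 UMIs. The libraries shared 4 cell barcodes. Fibroblast-like cells made up 1467 normal and 2223 tumour cells, and all 10 fibroblast markers had a UMI in at least 25% of both. These were 32.5% of the normal cells, which the labels call stellate cells, and 88.2% of the tumour cells, a share that the PDPN gate can set. The other normal classes were endothelial-like (1061 cells), arterial endothelial-like (292), pericyte-like (63), smooth muscle-like (70), macrophage or monocyte-like (1394) and B-like (70). In the tumour library only the last 2 of these reached 20 cells, with 52 cells each. The normal fibroblast-like cells lay mostly in clusters led by Tenm4 and Krtdap and the tumour ones in clusters led by Ptx3, Prokr2 and Thbs4, so the 2 libraries hardly shared a cluster. The members did not take part in the clustering. A CPM value resting on at least 1000 UMIs had an interval within 6.37% of the value, and one resting on at least 100 UMIs within 21.5%.

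In the normal pancreas, the basement membrane genes that reached 20 CPM were highest in fibroblast-like cells or in the cells of vessels. Of 27 members that reached 20 CPM in at least 1 normal class, 11 were highest in fibroblast-like, 8 in smooth muscle-like, 4 in pericyte-like, 3 in arterial endothelial-like and 1 in endothelial-like cells, and none in macrophage or monocyte-like cells. The same count was not made over all genes. For Col4a1, Col4a2, Col4a3, Lama5, Lamc3, Agrn, Dag1 and Egflam the intervals of the highest and the next class overlapped. B-like cells served as the background of free RNA. Col4a1 had a UMI in 2.9% of them against 89.8% of fibroblast-like cells, each cell thinned to 2000 UMIs, at median depths before thinning of 9737 and 9016 UMIs. Before thinning the share was 8.57% in B-like cells. Nid1 and Lamb3 had a UMI in a larger share of B-like than of macrophage or monocyte-like cells, as given below. For these genes B-like cells may not stand for free RNA.

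**Figure D1:**
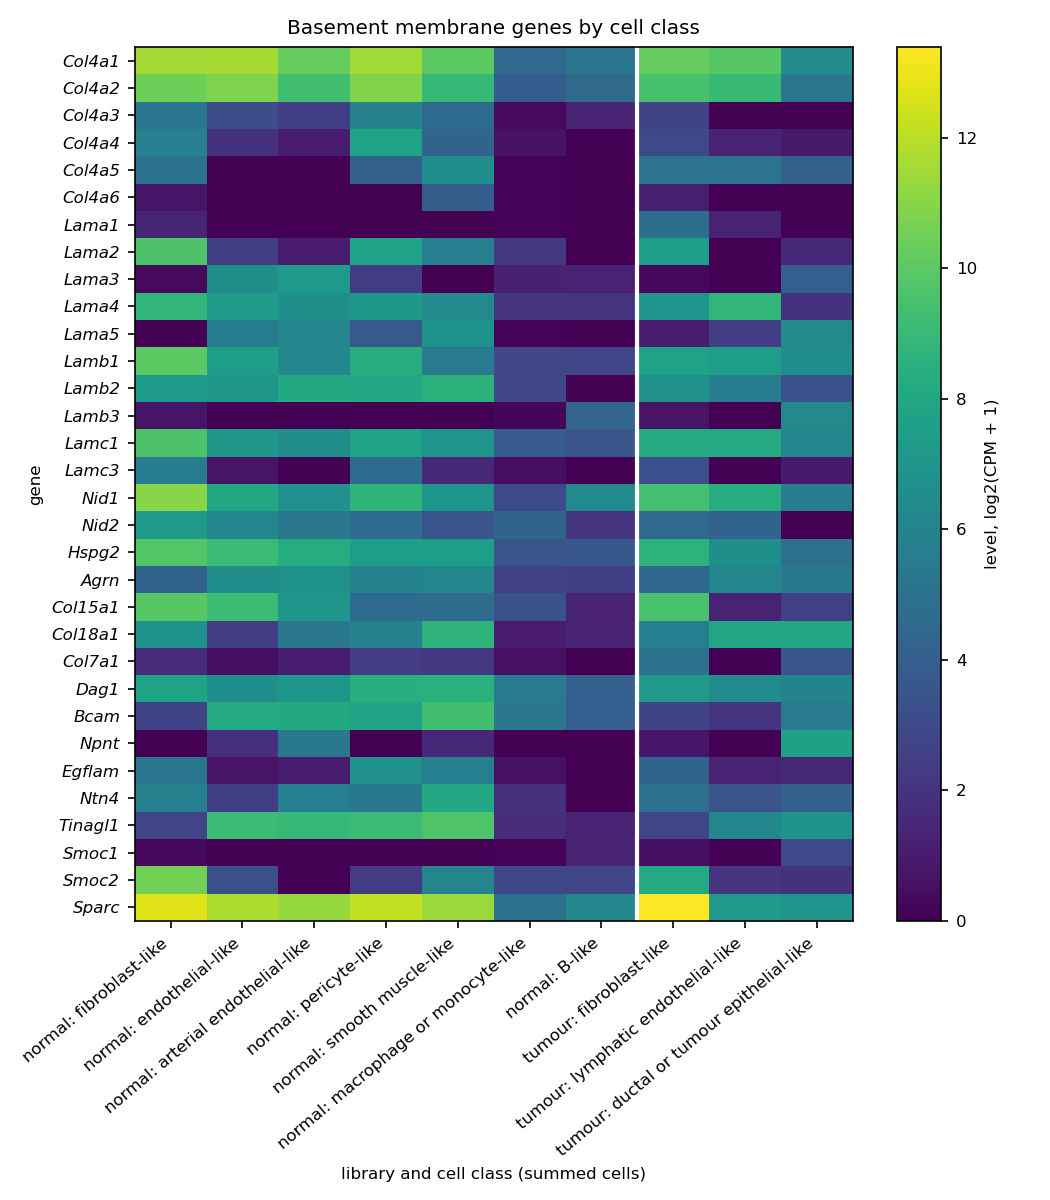
Level of each of the 32 genes as log2(CPM + 1), by colour, in 7 classes of the normal library and 3 of the tumour library (columns, divided by the white line). Collagen IV alpha 1 and alpha 2 and Sparc are high in all stromal and vascular classes of the normal library, while Lama2, Lamb1, Nid1 and Smoc2 are highest in its fibroblast-like cells and Tinagl1 and Bcam in its vascular classes.

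The 2 ubiquitous collagen IV chains, which form the heterotrimer of most basement membranes, were at similar levels in fibroblasts, endothelium and pericytes. Col4a1 stood at 3149 CPM in endothelial-like, 3093 in fibroblast-like and 2956 in pericyte-like cells, and these 3 intervals overlapped. It was lower in arterial endothelial-like cells, at 1197 CPM, and in smooth muscle-like cells, at 1024. Col4a2 had its highest values in pericyte-like cells, at 1870 CPM, and endothelial-like cells, at 1757, with overlapping intervals, and stood at 1371 CPM in fibroblast-like cells.

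The collagen IV genes lie head to head in pairs. The sequence between or across the starts is shown for Col4a1 with Col4a2 and for Col4a4 with Col4a3. Col4a6 (minus) and Col4a5 (plus), on chromosome X, also lie head to head, and the sequence between them is not shown. Whether these sequences have a part in the levels was not tested. In GENCODE vM21 (GRCm38), Col4a1 on the minus strand and Col4a2 on the plus strand of chromosome 8 start within chr8:11312805-11312826 and overlap by 22 bases. Col4a4 (minus) and Col4a3 (plus) start 71 bases apart, at chr1:82586850-82586920. Both runs are given on the plus strand of GRCm38.p6 from the RefSeq promoter table, and capitals mark a match, on either strand, to the GC box core (GGGCGG), the CCAAT box (its letters are its name) or the TATA box (TATAAA).
Col4a1 and Col4a2: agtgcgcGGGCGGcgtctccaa
Col4a4 and Col4a3: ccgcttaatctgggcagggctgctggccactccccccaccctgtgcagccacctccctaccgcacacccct
The first run holds 1 match, to the GC box core GGGCGG, and has a GC content of 72.7%. The second holds none and has a GC content of 69.0%. The table held a 300-base promoter for 23 of the 32 members. GGGCGG occurred in 17 of these (73.9%) against 35.9% of all 27025 promoters, CCAAT in 9 (39.1%) against 37.9%, and TATAAA in 0 against 14.2%. The members' promoters had a median GC content of 63.3%, against 52.7% over all, and no test of these shares was made.

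The minor collagen IV chains had narrower patterns. Col4a3 and Col4a4, chains of the specialised network best known from the glomerulus, reached 61.2 CPM (34.3 to 101) and 208 CPM (155 to 274) in pericyte-like cells. In fibroblast-like cells they stood at 35.8 CPM (32.7 to 39.0) and 56.1 CPM (52.2 to 60.1), so only for Col4a4 were the intervals of these 2 classes apart. Col4a5, a chain of that network and of smooth muscle basement membranes, was highest in smooth muscle-like cells, at 94.6 CPM (70.8 to 124), and had no UMI in the 2 endothelial classes. Its partner Col4a6 was also highest in smooth muscle-like cells, at 14.3 CPM (6.16 to 28.1), below the minimum of 20.

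The laminin chains differed most between fibroblasts and endothelium in the alpha chain. Lama2, the alpha chain of muscle and nerve laminins, stood at 790 CPM in fibroblast-like and 220 CPM (166 to 288) in pericyte-like cells, and at 4.69 CPM in endothelial-like cells. Lama4, the alpha chain of vascular and mesenchymal laminins, stood at 456 CPM in fibroblast-like and 163 CPM (151 to 174) in endothelial-like cells. Lama5, the broadly used alpha chain of mature epithelial and vascular sheets, had the opposite pattern: 111 CPM (84.8 to 142) in smooth muscle-like, 67.1 CPM (51.1 to 86.6) in arterial endothelial-like, and 1 UMI in all normal fibroblast-like cells. Lama3, best known from epithelial laminin-332, stood at 150 CPM (126 to 178) in arterial endothelial-like and 98.9 CPM (90.3 to 108) in endothelial-like cells, against 4 UMIs in fibroblast-like cells. Lama1, the alpha chain of the early embryo, was nearly absent, with 23 UMIs in normal fibroblast-like cells.

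Of the beta and gamma chains, those of the common trimers were highest in fibroblast-like cells. Lamb1 stood at 1038 CPM there and Lamc1 at 815 CPM, against 327 CPM (259 to 407) and 212 CPM (159 to 278) in pericyte-like cells. Lamb2, the beta chain of arterial and neuromuscular laminins, was highest in smooth muscle-like cells, at 382 CPM (332 to 437), and stood at 154 CPM in fibroblast-like cells. Lamc3 reached 47.4 CPM (43.9 to 51.1) in fibroblast-like cells. Lamb3, the beta chain of laminin-332, had 10 UMIs in fibroblast-like and none in endothelial-like cells. Its highest level was in B-like cells, at 19.5 CPM (10.4 to 33.3), below the minimum of 20.

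Nidogens and perlecan were highest in fibroblast-like cells. Nid1, the main linker of laminin and collagen IV, stood at 2039 CPM in fibroblast-like, 433 CPM (354 to 523) in pericyte-like and 256 CPM in endothelial-like cells. Its relative Nid2 stood at 144 CPM in fibroblast-like and 71.2 CPM (63.9 to 79.0) in endothelial-like cells. Hspg2, which encodes perlecan, stood at 910 CPM in fibroblast-like and 560 CPM in endothelial-like cells.

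Col15a1, a collagen of the zone beneath vascular and muscle basement membranes, stood at 957 CPM in fibroblast-like and 586 CPM in endothelial-like cells, but at 126 CPM (104 to 152) in arterial endothelial-like cells. Col18a1, whose C-terminal part is endostatin, was highest in smooth muscle-like cells, at 412 CPM (361 to 469), against 111 CPM in fibroblast-like cells. Agrn, the heparan sulphate proteoglycan agrin, was highest in arterial endothelial-like cells, at 113 CPM (91.6 to 137), and stood at 18.5 CPM (16.3 to 20.9) in fibroblast-like cells. Among these 3 genes, only Col15a1 was highest in fibroblasts.

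Both receptors and all 4 accessory genes were highest in a mural or endothelial class. Bcam, a receptor for Lama5-containing laminins, stood at 637 CPM (573 to 707) in smooth muscle-like and 306 CPM in endothelial-like cells, against 5.56 CPM in fibroblast-like cells. Dag1, which encodes dystroglycan, was at 373 CPM (324 to 427) in smooth muscle-like, 331 CPM (263 to 411) in pericyte-like and 217 CPM in fibroblast-like cells, and was lower in arterial endothelial-like (137 CPM) and endothelial-like cells (99.5 CPM). Tinagl1, a matrix protein related to cathepsins, ranged from 495 to 821 CPM over the 4 vascular classes and stood at 5.99 CPM in fibroblast-like cells.

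Ntn4, a netrin that binds laminin gamma chains, was highest in smooth muscle-like cells, at 268 CPM (227 to 314), against 56.2 CPM (52.3 to 60.2) in fibroblast-like cells. Egflam, which encodes pikachurin, a dystroglycan ligand, stood at 110 CPM (72.6 to 160) in pericyte-like and 36.0 CPM (32.9 to 39.3) in fibroblast-like cells. Npnt, which encodes the integrin ligand nephronectin, had 39.8 CPM (27.7 to 55.4) in arterial endothelial-like cells and no UMI in 1467 normal fibroblast-like cells. In the SPARC family, the collagen-binding Sparc was high in all 5 stromal and vascular classes, from 2584 to 6728 CPM, and its relative Smoc2 stood at 1504 CPM in fibroblast-like cells and at most 66.0 CPM in any other class. Smoc1 had 3 UMIs in normal fibroblast-like cells.

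The normal fibroblast-like cells were not uniform. Clustered again without the members, they split into a larger cluster led by Cxcl14 (1048 cells) and a smaller one led by Adamts16 (419 cells), in which all 6 markers of universal fibroblasts were at least 2-fold higher than in the Cxcl14-led cells. The resolution of this step was chosen after member levels had been seen. The Cxcl14-led cells held 60.6% of the UMIs of normal fibroblast-like cells but 88.3% of those of Col4a1 and 90.4% of those of Smoc2.

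A gene was called higher or lower between 2 groups when it reached 20 CPM in either, differed at least 2-fold, and its interval excluded no difference. Of 22 members that reached the minimum in either normal fibroblast cluster, 12 were called higher and 2 lower in the Cxcl14-led cells, where 8.55% and 6.22% of 6877 genes were called higher and lower. Their median log2 fold was 1.12, against 0.21 over all 6877 genes. Scaling the sums by TMM (trimmed mean of M values) or by the median ratio over genes left 10 of these members higher and 3 lower. This was because Lama2 and Lamb1 came within 2-fold and Nid1 passed it. Among all genes called either way, the share called higher moved from 57.9% to 42.2% (TMM) and 41.3% (median ratio).

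In the Cxcl14-led cells, the collagen IV network genes were higher together. Col4a1 stood at 4505 CPM against 920 in the Adamts16-led cells (4.90-fold, 4.75 to 5.04), and Col4a2 at 2013 against 383 CPM (5.26-fold, 5.03 to 5.51). Col4a3 and Col4a4 were 7.12-fold (5.18 to 10.0) and 9.38-fold (7.06 to 12.7) higher. Col4a5 went the other way, at 20.1 CPM against 49.2, 2.45-fold lower (2.01 to 2.98).

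Perlecan, Nid2 and the zone collagen Col15a1 had the same direction. Hspg2 stood at 1298 against 313 CPM (4.14-fold), Nid2 at 214 against 35.3 CPM (6.08-fold) and Col15a1 at 1445 against 207 CPM (7.0-fold). The Adamts16-led cells held few UMIs of Lamc3 and Egflam. Lamc3 had 656 UMIs against 9 (47.4-fold, 24.8 to 104) and Egflam 491 against 14 (22.8-fold, 13.5 to 42.0). Smoc2 stood at 2245 against 366 CPM (6.13-fold).

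The laminin chains of the common trimers differed less. Lama2 was 2.20-fold and Lamb1 2.16-fold higher in the Cxcl14-led cells, and Lamc1 stood at 869 against 731 CPM, within 2-fold. Lama4 (407 against 530 CPM), Lamb2 (127 against 195 CPM) and Nid1 (1564 against 2771 CPM) had higher values in the Adamts16-led cells but were within 2-fold. Ntn4 had the largest difference towards those cells, at 123 against 12.7 CPM (9.69-fold, 7.90 to 12.0). Sparc did not separate the clusters, at 6685 and 6794 CPM.

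Markers of other cells also differed between these clusters. The 9 pericyte markers summed to 641 CPM in the Cxcl14-led and 126 in the Adamts16-led cells, all 9 with a UMI in both. Pdgfrb was the highest of these, at 215 and 76.9 CPM. The 10 endothelial markers summed to 215 CPM (10 with a UMI) and 82.1 CPM (9, with Cldn5 at 0). Plvap alone stood at 182 and 25.9 CPM, and the higher endothelial sum of the Cxcl14-led cells rests on it. The 5 mesothelial markers summed to 22.6 CPM (1, Wt1, with a UMI; Msln, Upk3b, Lrrn4 and Krt19 at 0) and 173 CPM (3; Msln and Lrrn4 at 0), nearly all of it Wt1. Their part in the result was not tested. Tinagl1 and Bcam, which were high in pericyte-like and endothelial-like cells, stood at 7.76 and 6.47 CPM in the Cxcl14-led and 3.26 and 4.16 CPM in the Adamts16-led cells.

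In the tumour library, fibroblast-like cells had lower levels of most laminin, collagen IV and nidogen genes than in the normal library, and higher levels of Lama1 and Col7a1. Of the 32 members, 24 reached 20 CPM in either sum. Of these, 13 were called lower and 2 higher, and 9 neither, where 11.3% and 7.65% of 6814 genes were called lower and higher. The median log2 fold of the 24 was -1.12, against -0.25 over all 6814 genes. TMM and median ratio scaling shifted all log2 folds by 0.32 and 0.33. Among all genes called either way, the share called higher moved from 40.4% to 67.0% and 68.2%. These scalings left 11 members lower and 2 higher: Hspg2 and Col18a1 came within 2-fold.

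**Figure D2:**
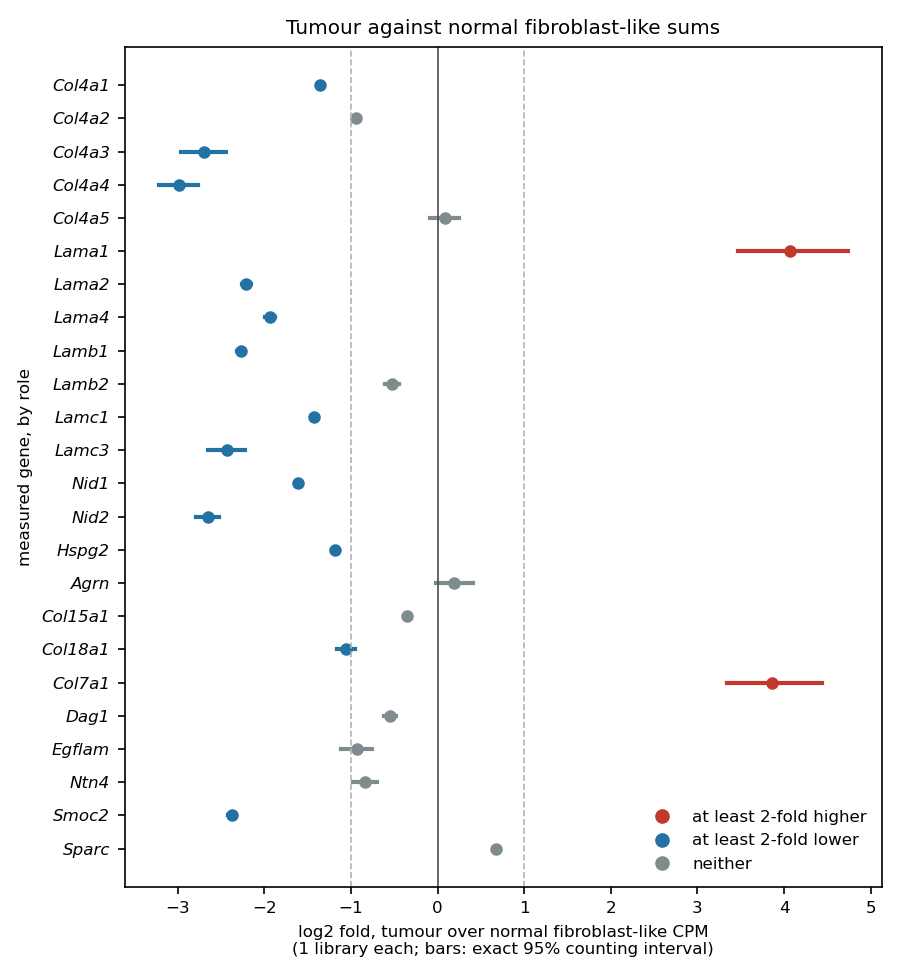
Log2 fold of tumour over normal fibroblast-like CPM (x axis) for the 24 genes that reached 20 CPM in either sum (y axis), with points for the value, bars for the exact 95% counting interval and dashed lines at 2-fold. There are 13 blue points (called lower) left of the dashed line and 2 red points, Lama1 and Col7a1, far to the right; the grey points are within 2-fold.

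Collagen IV differed by chain. Col4a1 stood at 1203 CPM in tumour and 3093 in normal fibroblast-like cells, 2.57-fold lower (2.53 to 2.61). Col4a2 stood at 714 and 1371 CPM, 1.92-fold lower and so just short of the threshold. The Col4a3 and Col4a4 pair was 6.49-fold (5.42 to 7.82) and 7.92-fold (6.78 to 9.29) lower, at 5.51 and 7.08 CPM in the tumour library. Col4a5 stood at 33.4 and 31.6 CPM with overlapping intervals, and the sign of its difference depended on the processing.

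Of 7 laminin chains that reached the minimum in either sum, 5 were called lower and 1, Lama1, higher, where 11.3% and 7.65% of all genes were. Lama2 stood at 171 against 790 CPM (4.62-fold lower), Lama4 at 119 against 456 CPM (3.83-fold) and Lamb1 at 215 against 1038 CPM (4.84-fold). Lamc1 stood at 303 against 815 CPM (2.69-fold) and Lamc3 at 8.78 against 47.4 CPM (5.39-fold). Lamb2, at 107 against 154 CPM, was within 2-fold.

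The embryonic chain Lama1 was higher, with 788 UMIs in tumour and 23 in normal fibroblast-like cells, or 27.5 and 1.64 CPM (16.8-fold higher, 11.1 to 26.6). At 2000 UMIs per cell, 3.9% of tumour fibroblast-like cells had a Lama1 UMI. With every cell weighted the same, its level was below 20 CPM in both libraries. Col7a1, which forms the anchoring fibrils under epithelial basement membranes, had 894 against 30 UMIs, or 31.2 and 2.14 CPM (14.6-fold higher, 10.1 to 21.7).

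Among the linkers, Nid1 stood at 670 against 2039 CPM (3.04-fold lower) and Nid2 at 22.8 against 144 CPM (6.30-fold lower). Hspg2 stood at 402 against 910 CPM (2.27-fold lower) and Col18a1 at 53.2 against 111 CPM (2.08-fold lower), and both calls ended under other scalings or without the Moxd1-led tumour cells described below. Col15a1, at 749 against 957 CPM, and Agrn, at 21.2 against 18.5 CPM, were within 2-fold, the latter with a sign that depended on the processing. Smoc2 stood at 289 against 1504 CPM (5.20-fold lower) while Sparc stood at 10717 against 6728 CPM, 1.59-fold higher and within 2-fold.

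Dag1 (148 against 217 CPM), Egflam (18.8 against 36.0) and Ntn4 (31.5 against 56.2) were lower in the tumour library but within 2-fold. Ntn4 passed 2-fold when only cells with a Pdpn UMI were used in both libraries, the setting closest to the tumour gate. In that setting 14 members were called lower and 2 higher, against 13 and 2. The same count was not made over all genes in that setting, so it cannot show whether it is particular to the members. The 8 members below 20 CPM in both sums were Col4a6, Lama3, Lama5, Lamb3, Bcam, Npnt, Tinagl1 and Smoc1, with at most 6.07 CPM, and Bcam and Tinagl1 were at 5.56 to 6.07 CPM in both.

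The share of cells with a UMI was also lower for most of these genes. Thinning to 2000 UMIs dropped 20 shallower cells of the normal and 84 of the tumour fibroblasts, and 22 of the 24 genes then had a lower share in the tumour library. This count was 20 at 5000 UMIs, where Col15a1 (85.0% against 80.4%) and Agrn (9.64% against 9.37%) turned, and 19 without thinning, where Col4a5 (20.1% against 19.9%) did so too. These counts were not made over all genes, and they include small differences. At 2000 UMIs, Sparc was seen in 99.9% of normal and 99.6% of tumour cells. Lama2 was seen in 76.2% of normal and 30.6% of tumour cells, Lamb1 in 82.0% and 34.9%, and Nid1 in 93.4% and 70.6%. Without thinning the Lama2 shares were 97.5% and 72.3%. In the B-like cells of the normal library, Lama2 and Lamb1 had thinned shares of 0% (0 of 69 cells). This allows up to 4.35% when a count of 0 is taken as at most 3. Nid1 had a share of 21.7% in these B-like cells and a lower one in macrophage or monocyte-like cells, as given below.

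**Figure D3:**
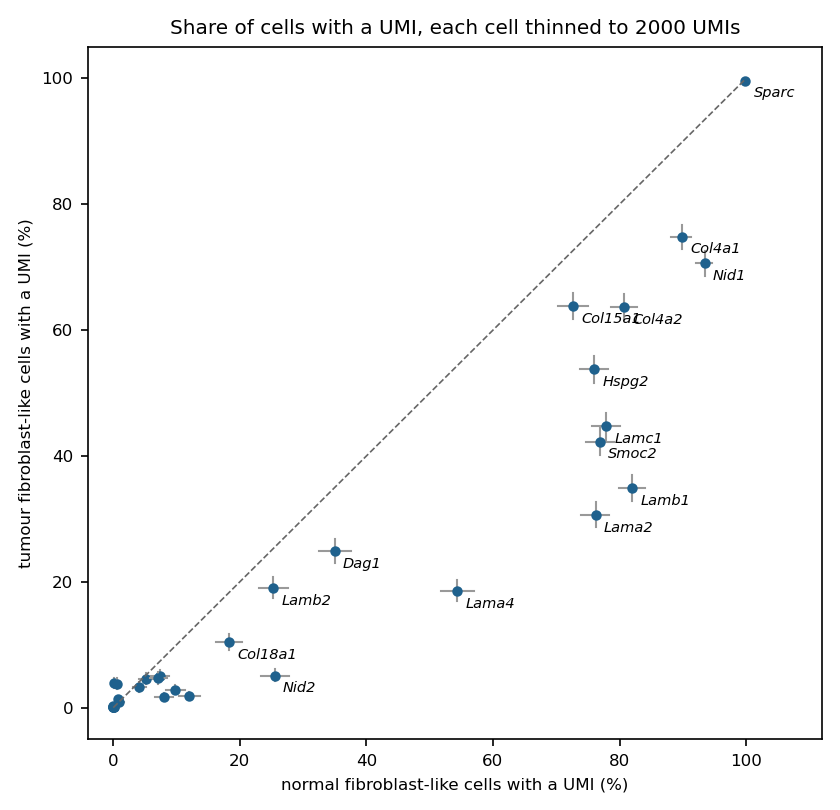
Share of fibroblast-like cells with at least 1 UMI of each gene in the normal (x axis, 1447 cells) and tumour library (y axis, 2139 cells), after thinning each cell to 2000 UMIs, with exact 95% binomial intervals as grey bars and the line of equal shares dashed. Lama2, Lamb1 and Lama4 lie far below the line, Sparc lies at the top on both axes, and Lama1 and Col7a1 are the unlabelled points above the line near 0 on the x axis.

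Markers of other cell types in the fibroblast-like sums also differed between the libraries. The 10 endothelial markers, all with a UMI in both, summed to 162 CPM in normal and 42.5 in tumour cells, with Plvap the highest at 120 and 24.6 CPM. The 8 smooth muscle markers summed to 83.2 CPM (5 with a UMI; Cnn1, Actg2 and Pln at 0) and 1543 CPM (7; Pln at 0), the 5 acinar markers, all with a UMI, to 399 and 54.3 CPM, and the 11 macrophage or monocyte markers to 104 CPM (11) and 13.6 CPM (10; Fcgr1 at 0). Acta2 and Tagln of the smooth muscle list are also on the list for myofibroblastic cancer-associated fibroblasts. Tagln alone stood at 954 CPM in the tumour cells. The 9 pericyte markers, all with a UMI, were closer, at 438 and 371 CPM, with Pdgfrb the highest at 160 and 163 CPM. Their part in the differences was not tested.

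The tumour fibroblast-like cells split into 4 clusters, named by their leading genes. Cells led by Moxd1 (383 cells) had 6 of 8 markers of myofibroblastic cancer-associated fibroblasts at least 2-fold higher than the other tumour fibroblasts, and cells led by Smpd3 (436) had all 6 universal fibroblast markers at least 2-fold higher. The others were led by Chodl (898) and Fmo2 (506). The Moxd1-led cells were deep, with a median of 26256 UMIs, and held 35.4% of the summed UMIs with 17.2% of the cells.

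Over all 6 fibroblast clusters of both libraries, 24 members reached 20 CPM in at least 1. The normal Cxcl14-led cells had the highest level of 14 of them, and the tumour Moxd1-led cells the lowest level of 12. This order was not read over all genes, so the counts cannot show whether it is particular to the members. Col4a1 ran from 4505 CPM in the Cxcl14-led cells through 2912 in Fmo2-led, 1368 in Smpd3-led, 928 in Chodl-led and 920 in Adamts16-led to 709 in Moxd1-led cells, and the Chodl-led and Adamts16-led intervals overlapped. Smoc2 ran from 2245 CPM in the Cxcl14-led cells to 718 in Fmo2-led and 71.5 in Moxd1-led cells.

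**Figure D4:**
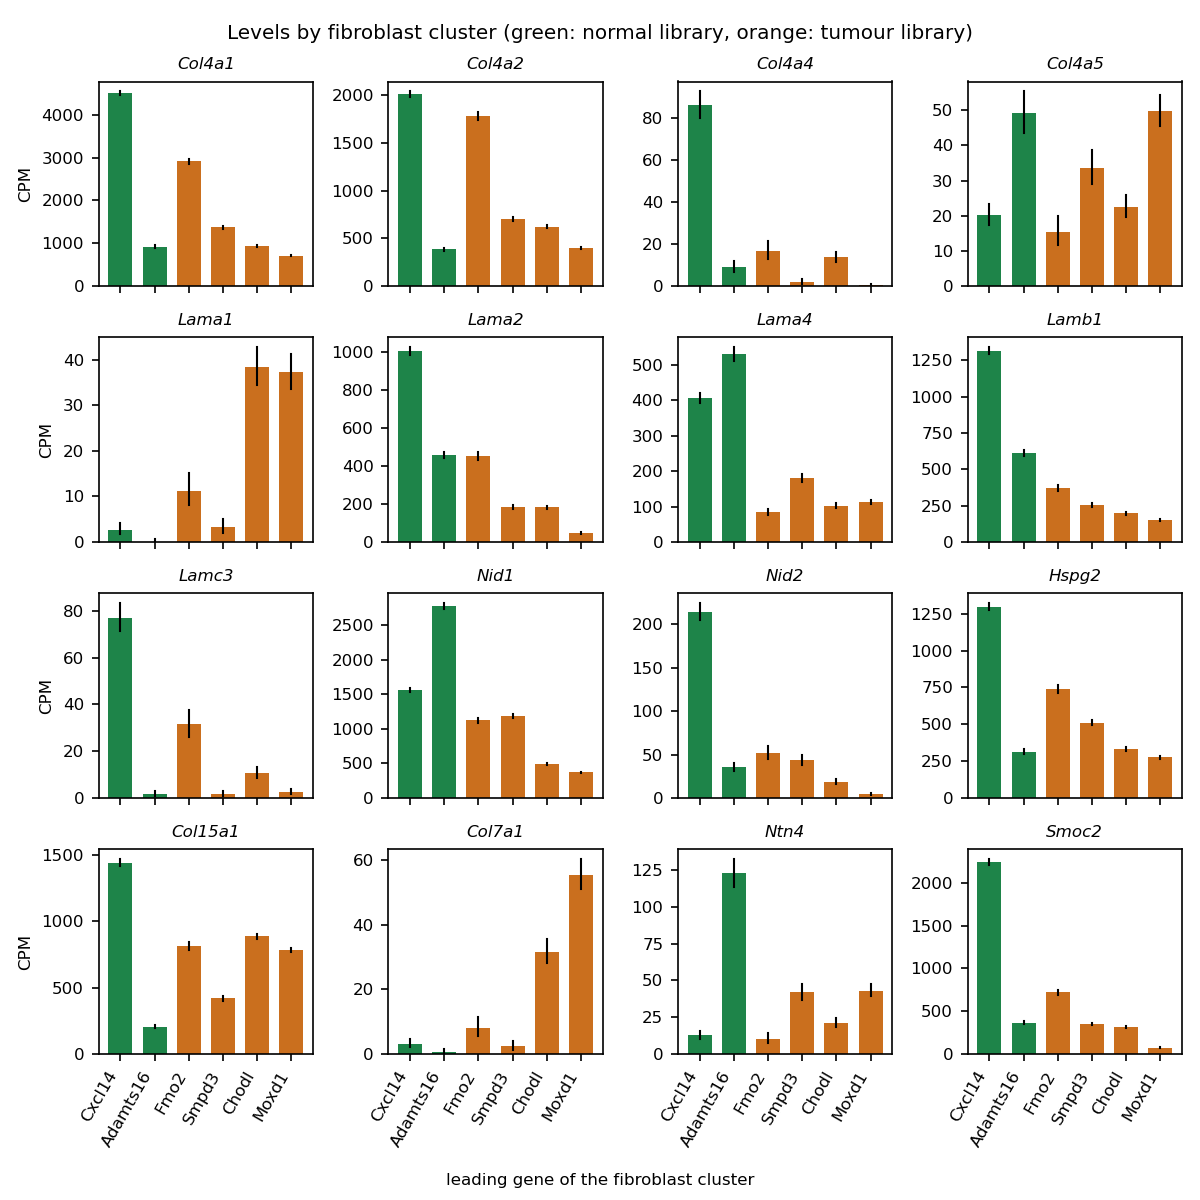
CPM (y axis, from 0, own scale per panel) of 16 genes in the 2 normal (green) and 4 tumour (orange) fibroblast clusters, each named by its leading gene, with exact 95% Poisson intervals as black lines. Most panels peak in the normal Cxcl14-led cells and are lowest or nearly so in the tumour Moxd1-led cells, while Lama1 and Col7a1 appear in the tumour Chodl-led and Moxd1-led cells.

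Each tumour cluster was then set beside the normal cluster most like it over genes that are not members. By Pearson's r of log2(CPM + 1) across genes, the Smpd3-led cells were closest to the normal Adamts16-led cells (0.84 against 0.77 for the Cxcl14-led) and the Fmo2-led cells to the Cxcl14-led cells (0.81 against 0.74). Genes are not replicates, and these values only describe the match. The other 2 matches were lower and nearly tied. The Chodl-led cells were closest to the Cxcl14-led cells (0.76 against 0.74 for the Adamts16-led). The Moxd1-led cells were closest to the Adamts16-led cells (0.67 against 0.64 for the Cxcl14-led).

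Between the Smpd3-led and the Adamts16-led cells, Lama2, Lama4, Lamb1 and Nid1 were lower in the tumour library while the main collagen IV chains and perlecan were not. Of 17 members that reached the minimum, 5 were called lower and 1 higher, where 6.72% and 8.42% of 6448 genes were called lower and higher. Their median log2 fold was -0.31, against -0.13 over all 6448 genes. TMM and median ratio scaling shifted these log2 folds by 0.12 and 0.11 and left 5 members lower and 1 higher. Among all genes called either way, the share called higher moved from 55.6% to 66.4% and 65.6%. Lama2 stood at 185 against 458 CPM (2.48-fold lower), Lama4 at 181 against 530 CPM (2.93-fold) and Lamb1 at 256 against 610 CPM (2.39-fold). Nid1 was 2.34-fold and Ntn4 2.94-fold lower. Lamc1, at 374 against 731 CPM, and Lamb2, at 110 against 195 CPM, were within 2-fold.

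Col4a1 in contrast stood at 1368 against 920 CPM, Col4a2 at 704 against 383 CPM and Hspg2 at 511 against 313 CPM, each higher in the tumour library by less than 2-fold. Col15a1 stood at 419 against 207 CPM, 2.03-fold higher (1.89 to 2.18), a call that was lost when the members were allowed into the clustering or the fibroblast clusters were made at a resolution of 0.3. Nid2, at 43.6 against 35.3 CPM, and Smoc2, at 348 against 366 CPM, were within 2-fold. The sign of the Smoc2 difference changed with TMM and median ratio scaling.

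Between the Fmo2-led and the Cxcl14-led cells, 8 of 21 members that reached the minimum were called lower and 0 higher, where 12.5% and 7.71% of 6910 genes were called lower and higher. Their median log2 fold was -0.81, against -0.34 over all 6910 genes. Lama4 stood at 84.0 against 407 CPM (4.85-fold lower), Lamb1 at 372 against 1316 CPM (3.54-fold) and Lama2 at 453 against 1006 CPM (2.22-fold). Col4a3, Col4a4, Nid2, Lamc3 and Smoc2 were 3.65-fold, 5.20-fold, 4.12-fold, 2.45-fold and 3.13-fold lower. TMM and median ratio scaling shifted these log2 folds by 0.33 and 0.35 and brought Lama2 and Lamc3 within 2-fold. Among all genes called either way, the share called higher moved from 38.2% to 68.5% and 70.4%.

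The other 13 of these genes were within 2-fold between the Fmo2-led and the Cxcl14-led cells. Col4a1 stood at 2912 against 4505 CPM, Hspg2 at 741 against 1298 CPM and Nid1 at 1121 against 1564 CPM. Col4a2 stood at 1779 against 2013 CPM and Lamb2 at 122 against 127 CPM, and the signs of both differences turned under TMM and median ratio scaling. Egflam stood at 62.1 and 57.7 CPM with overlapping intervals.

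Between the Chodl-led cells, the largest tumour cluster, and the Cxcl14-led cells, the laminin, collagen IV and nidogen genes that reached the minimum were all called lower, other than Lama1, Lamb2 and Col4a5. Of 24 members that reached the minimum, 15 were called lower and 2 higher, where 14.7% and 8.05% of 6908 genes were called lower and higher. Their median log2 fold was -1.68, against -0.34 over all 6908 genes. Col4a1 stood at 928 against 4505 CPM (4.85-fold lower, 4.74 to 4.97) and Col4a2 at 621 against 2013 CPM (3.24-fold lower, 3.15 to 3.34). Lamb1 stood at 196 against 1316 CPM (6.70-fold lower), and Lama2, Lama4 and Lamc1 were 5.52-fold, 4.0-fold and 3.01-fold lower. Lama1 (38.5 against 2.70 CPM) and Col7a1 (31.7 against 3.17 CPM) were the 2 called higher. TMM and median ratio scaling shifted these log2 folds by 0.39 and 0.40. They gave 14 lower and 3 higher, since Egflam came within 2-fold and Ntn4 passed it. Among all genes called either way, the share called higher moved from 35.4% to 65.0% and 66.4%.

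Between the Moxd1-led and the Adamts16-led cells, which were the least alike of the pairs, 9 of 20 members that reached the minimum were called lower and 4 higher, where 15.4% and 12.1% of 6642 genes were called lower and higher. Their median log2 fold was -0.79, against -0.12 over all 6642 genes. Lama2 stood at 46.5 against 458 CPM (9.84-fold lower), Nid1 at 369 against 2771 CPM (7.51-fold) and Lama4 at 113 against 530 CPM (4.70-fold). Lamb1 and Lamc1 were 4.11-fold and 3.44-fold lower, while Col4a1 (709 against 920 CPM), Col4a2 (399.6 against 383 CPM) and Hspg2 (275 against 313 CPM) were within 2-fold, the last with a sign that turned under TMM and median ratio scaling. Col15a1, at 784 against 207 CPM (3.79-fold), and Sparc, at 13783 against 6794 CPM (2.03-fold), were called higher, as were Lama1 and Col7a1. TMM and median ratio scaling shifted these log2 folds by 0.22 and 0.23. They gave 8 lower and 5 higher, since Col18a1 came within 2-fold and Agrn passed it. Among all genes called either way, the share called higher moved from 44.0% to 59.7% and 60.2%.

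Over these 4 pairings, at library-total scaling, Lama2, Lama4 and Lamb1 were called lower in each, and Col4a1 and Col4a2 in that of the Chodl-led cells alone. The collagen IV part depends on the pairing of the 2 nearly tied clusters. Col4a1 stood at 928 CPM in Chodl-led and 920 in Adamts16-led cells, and at 709 in Moxd1-led and 4505 in Cxcl14-led cells. No calls were made for those other pairings. Each normal cluster serves in 2 pairings, so the pairings share cells as well as libraries.

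Markers of other cells were not level within these pairs either. The endothelial markers summed to 36.0 CPM in the Smpd3-led (10 of 10 with a UMI) and 82.1 in the Adamts16-led cells (9, with Cldn5 at 0), and to 71.2 in the Fmo2-led (5; Cdh5, Tie1, Emcn, Esam and Cldn5 at 0) and 215 in the Cxcl14-led cells (10). Plvap was the highest endothelial marker in each, at 20.2 against 25.9 CPM and at 62.1 against 182 CPM. The pericyte markers, all 9 with a UMI in each, summed to 288 against 126 CPM and to 358 against 641 CPM. Pdgfrb was the highest of these, at 133 against 76.9 CPM and at 203 against 215 CPM. The 11 macrophage or monocyte markers summed to 7.63 (10 with a UMI) against 100.4 CPM (10), with Fcgr1 at 0 in both, and to 8.06 (7; Csf1r, Adgre1, Fcgr1 and Ccr2 at 0) against 106 CPM (11). The 5 acinar markers, all with a UMI, summed to 38.0 against 312 CPM and to 210 against 455 CPM. In the Chodl-led and Moxd1-led cells the endothelial markers summed to 37.6 and 39.6 CPM (8 in each, with Cdh5 and Tie1 at 0) and the acinar ones to 22.5 and 32.8 CPM. Their smooth muscle markers summed to 1145 and 3245 CPM (7 in each, with Pln at 0), of which Tagln, shared with the myofibroblastic list, made up 905 and 1847 CPM. The same markers summed to 99.4 CPM in the Cxcl14-led and 58.2 in the Adamts16-led cells (5 in each, with Cnn1, Actg2 and Pln at 0). Their part in the differences was not tested.

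Within the tumour library, the Moxd1-led cells had lower levels of Lama2, Smoc2, both nidogens and the main collagen IV chains than the other tumour fibroblasts. Against the other tumour fibroblast-like cells, 7 of 21 members that reached the minimum were called lower and 2 higher, where 7.14% and 4.98% of 6081 genes were called lower and higher. Their median log2 fold was -0.37, against -0.0025 over all 6081 genes. Lama2 stood at 46.5 against 239 CPM (5.14-fold lower), Smoc2 at 71.5 against 409 CPM (5.72-fold) and Nid2 at 4.23 against 33.0 CPM (7.81-fold). Col4a1, Col4a2 and Nid1 were 2.08-fold, 2.22-fold and 2.26-fold lower, and Egflam 5.63-fold. The Chodl-led cells lay nearer for the main collagen IV chains and Nid1. Col4a1 stood at 928 CPM in them against 709 in Moxd1-led cells, Col4a2 at 621 against 399.6 and Nid1 at 494 against 369. Lama2, Smoc2, Nid2 and Egflam stood at 182, 316, 18.4 and 23.4 CPM in the Chodl-led cells. No calls were made against single tumour clusters. The Col4a1 call was lost under median ratio scaling.

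Col7a1 was highest in the Moxd1-led cells, at 55.5 against 17.8 CPM in the other tumour fibroblasts (3.11-fold higher, 2.71 to 3.58), and Col4a5 stood at 49.8 against 24.4 CPM (2.04-fold higher, 1.79 to 2.32). Without the Moxd1-led cells Col7a1 no longer reached 20 CPM in the tumour sum. Lama1 was at 38.5 CPM in the Chodl-led and 37.3 in the Moxd1-led cells, with overlapping intervals, and at 11.2 CPM or less in the Fmo2-led and Smpd3-led cells. Sparc stood at 13783 CPM in the Moxd1-led against 9034 in the other tumour fibroblasts, within 2-fold. The smooth muscle markers summed to 3245 CPM in the Moxd1-led cells, 7 of 8 with a UMI and Pln at 0. Tagln, which is also on the myofibroblastic list, was highest at 1847 CPM. The part of these markers in the result was not tested.

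A wider list of 67 basement membrane pathway genes, none of them a member, was read in the same fibroblast-like sums, and 66 were found. Of 49 that reached the minimum, 10 were called higher and 8 lower in the tumour library, and their median log2 fold was 0.21. TMM and median ratio scaling gave 12 and 13 higher and 5 lower. Over all genes, they moved the number called higher from 521 to 831 and 848, and the number called lower from 769 to 409 and 395. Of 13 turnover genes that reached the minimum, 4 were called higher and 0 lower, where 7.65% and 11.3% of all genes were.

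Among these 49 genes, the highest folds belonged to Timp1, a metalloproteinase inhibitor, at 1589 against 43.9 CPM (36.2-fold), the syndecan Sdc1, at 92.5 against 4.92 CPM (18.8-fold), and the stromelysin Mmp3, at 449 against 45.5 CPM (9.89-fold). The lowest belonged to Vwa1, a perlecan-binding matrix protein, at 23.3 against 194 CPM (8.35-fold lower), the sarcoglycan Sgcd, at 6.97 against 26.7 CPM (3.83-fold), and Hmcn2, a hemicentin, at 36.0 against 118 CPM (3.28-fold). Of 15 receptor genes that reached the minimum, 3 were called higher and 5 lower. Of 12 genes of assembly and modification, 2 were called higher and 1 lower, and of 9 other proteins of the zone, 1 and 2. Over all genes, 7.65% were called higher and 11.3% lower, and lists this short allow no reading of such counts.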

How the data were processed

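Per the submitters' processing notes, the authors ran Cell Ranger 3.1.0 with mm10, and deposited raw UMI counts per gene and barcode for 5437 normal and 2942 tumour barcodes (36675424 and 33285044 UMIs). Here, cells needed at least 500 genes and 1000 UMIs and at most 10% mitochondrial UMIs. Scrublet marked 2.08% of normal cells, which were removed. It marked 0.117% of tumour cells, so the 53 highest scores (2.06%) were removed instead. The rest were clustered with scanpy 1.11.5 (2000 variable genes without the members, 30 components, 15 neighbours, Leiden at resolution 0.5) and named from marker lists. The mural cluster and each library's fibroblast-like cells were clustered again at 0.2. Counts were summed per class. Intervals are exact (Poisson for a level, conditional binomial for a ratio, Clopper-Pearson for a share), and a count of 0 in a ratio was set to 3. Shares of cells were read after thinning to 2000 UMIs. Left out were 4 normal and 31 tumour cells of the mural cluster with fibroblast markers, 17 unnamed cells of it with endothelial genes, 35 cells with adipocyte genes, and mesothelial-like and acinar-like cells. On simulated sums of 6477 genes, with counting noise only, the rule called all 198 measured genes changed 3-fold or 4-fold and 0 of 6279 unchanged ones, which says nothing of the spread between libraries. Named genes were all members and the 3 highest and 3 lowest folds of the wider list among genes at 20 CPM or more. The members and lists were chosen with earlier results of these data known. edgeR 4.0.16 and DESeq2 1.42.0 gave the scaling factors of the alternatives only. Locations are from GENCODE vM21 and promoters from RefSeq (GRCm38.p6). For Lamb3, which overlaps 4930570N18Rik on its strand, reads may be shared.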

Additional observations from a re-analysis of the deposited data

How the results depend on the processing

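No paired analysis was possible because each group holds 1 library. For the 24 measured members between fibroblast-like sums, 13 alternatives gave 312 log2 folds. None of those of a called member turned sign, 212 stayed within the main counting interval and 100 lay outside it. The number called lower ranged from 11 to 14 and the median log2 fold from -1.36 to -0.69. The number called higher, 2, became 1 with cells weighted the same (Lama1 lost) and 1 without the tumour Moxd1-led cells (Col7a1 lost), 0 with a minimum of 50 CPM, which neither gene reached, and 4 with no minimum, which added Lama5 (29 against 1 UMI) and Npnt (21 against 0). In the wider list the 8 lower calls became 5 under TMM scaling, 5 under median ratio scaling and 13 with no minimum. Over all genes the 769 lower calls became 409 and 395 under these scalings. The other alternatives were not counted over all genes. The 1 higher call between Smpd3-led and Adamts16-led cells (Col15a1) became 0 with members allowed in the clustering and 0 at a resolution of 0.3. That resolution, the scalings of the cluster sums, adding the mural cells with fibroblast markers, and the pairings of the Chodl-led and Moxd1-led cells were chosen after seeing the data. Classes with few UMIs limit what can be read: 1 UMI is 4.08 CPM in pericyte-like and 1.78 in smooth muscle-like cells.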

Other observations

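In the 42 ductal or tumour epithelial-like cells of the tumour library, the laminin and accessory genes differed from those of the fibroblasts. Npnt stood at 198 CPM (172 to 227), Col18a1 at 264 CPM (234 to 297), Lamb1 at 93.2 CPM (75.7 to 114), Lama5 at 79.9 CPM (63.7 to 98.9) and Lamb3 at 77.1 CPM (61.2 to 95.8), against 0.73, 53.2, 215, 1.01 and 0.63 CPM in tumour fibroblast-like cells. These epithelial cells passed a gate for GFP and PDPN, and their median depth was 21450.5 UMIs. The 72 lymphatic endothelial-like cells of the tumour library, which carry PDPN, had Lama4 at 453 CPM (403 to 507), Col18a1 at 235 CPM (200 to 275) and Sparc at 144 CPM (117 to 176), while Lama2 and Col4a3 had no UMI.

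In the 70 B-like cells of the normal library, 2 members, chosen after their values were seen, had UMIs in more cells than in macrophages. Nid1 had 53 UMIs and a thinned share of 21.7%, against 0.89% in macrophage or monocyte-like cells, and Lamb3 had 13 UMIs and 10.1%, against 0%. In the 52 B-like cells of the tumour library Nid1 had 1 UMI and Lamb3 3 UMIs. Overlapping transcripts on the strand of Lamb3 were not told apart.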
